A study of Mus musculus with 8 samples.

Results

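The 10 genes described here encode enzymes that break down the branched-chain amino acids leucine, isoleucine and valine, together with a kinase and a phosphatase that switch the second step off and on. They are Bcat2, Bckdha, Bckdhb, Dbt, Bckdk, Ppm1k, Ivd, Mccc1, Hibch and Acadsb, chosen by name, and each has 1 row among the 24054 genes of the deposited table. Their RNA was measured in the soleus (SOL), a hindlimb muscle of slow and fast fibres, from 4 MI4KO mice and 4 flox mice. Flox mice carried the floxed Irf4 alleles without Cre. MI4KO mice carried the same floxed alleles with Cre expressed from Myl1, a gene of fast myosin light chains, so that Irf4, which encodes the transcription factor IRF4, is meant to be lost in fibres that have expressed Myl1 but not in the vessel, nerve, fat and immune cells that a whole muscle also holds. The labels give all 8 mice as male C57BL/6 and record their food as a high fat diet. Their age is not given in the sources used here, and the study's methods give no diet for the animals used for sequencing. The study describes the metabolism of its MI4KO and flox mice on chow, and its discussion names high-fat-diet work as still under way. The label thus differs from the setting that the study describes, and which diet the sequenced mice ate cannot be settled here. Within a group, mice are called 1 to 4 from the lowest to the highest number in the labels, which does not pair a mouse of one group with a mouse of the other.

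Muscle is a main site where the body begins to use branched-chain amino acids. In the mitochondrion, BCAT2 moves the amino group of leucine, isoleucine or valine to a ketoacid, and the branched-chain ketoacid dehydrogenase (BCKDH) complex then removes a carboxyl group in a step that cannot be reversed. The kinase BCKDK phosphorylates and inactivates the complex, while the phosphatase PPM1K reverses this. After the complex, the carbon skeletons follow separate routes, in which IVD and MCCC1 act on the leucine product, HIBCH on the valine product, and ACADSB on the isoleucine and, in part, the valine product.

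In the deposited scaling, no member passed the test between MI4KO and flox SOL. Of the 10 members, 6 had a higher and 4 a lower mean on the log2 scale in MI4KO mice, with differences from -0.09 for Ppm1k to 0.16 for Mccc1 and a median of 0.03, against a median of -0.01 over all genes tested. This split moved with the scaling, to 9 higher and 1 lower with a median of 0.07 by library size, where the median over all genes was 0.03. It was 8 higher and 2 lower with DESeq2, which differs in both scaling and fit. The 95% interval of every member lay between a fold of 0.789 and 1.26, so a change of 1.5-fold in either direction was outside each of the 10 intervals. Mccc1 stood nearest to a difference, and whether its groups overlapped turned on how the libraries were scaled. A single mouse, MI4KO mouse 3, held the highest value of 7 of the 10 members.

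IRF4 can bind DNA at interferon-stimulated response elements (ISRE) and, with partners of the ETS family, at ETS-IRF composite elements (EICE). To show the DNA at the start of members that the results turn on, the promoter windows of 3 genes are given, taken from RefSeq on GRCm38.p6 and reaching from 250 bases before to 50 bases after the gene start. Mccc1 had the largest difference of the 10, and Bckdk and Ppm1k encode the opposed regulators of the complex. The windows lie at chr3:36000629-36000928 on the minus strand for Mccc1, at chr7:127903823-127904122 on the plus strand for Bckdk and at chr6:57535438-57535737 on the minus strand for Ppm1k. Each is written 5′ to 3′ in the direction of its gene, and the capitals mark every match to the CCAAT box, with the letters CCAAT, and to the GC box, with the letters GGGCGG, on either strand.
Mccc1: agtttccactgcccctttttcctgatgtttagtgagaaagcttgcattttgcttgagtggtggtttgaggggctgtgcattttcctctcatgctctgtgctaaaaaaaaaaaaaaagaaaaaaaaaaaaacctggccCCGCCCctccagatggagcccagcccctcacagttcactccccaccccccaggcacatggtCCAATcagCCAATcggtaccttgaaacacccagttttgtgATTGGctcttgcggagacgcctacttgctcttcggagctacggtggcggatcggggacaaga
Bckdk: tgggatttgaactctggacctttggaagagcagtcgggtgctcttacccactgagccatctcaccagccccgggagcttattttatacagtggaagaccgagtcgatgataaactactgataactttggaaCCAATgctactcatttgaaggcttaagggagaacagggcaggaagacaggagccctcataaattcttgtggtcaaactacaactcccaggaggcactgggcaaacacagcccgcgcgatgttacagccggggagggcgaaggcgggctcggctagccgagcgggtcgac
Ppm1k: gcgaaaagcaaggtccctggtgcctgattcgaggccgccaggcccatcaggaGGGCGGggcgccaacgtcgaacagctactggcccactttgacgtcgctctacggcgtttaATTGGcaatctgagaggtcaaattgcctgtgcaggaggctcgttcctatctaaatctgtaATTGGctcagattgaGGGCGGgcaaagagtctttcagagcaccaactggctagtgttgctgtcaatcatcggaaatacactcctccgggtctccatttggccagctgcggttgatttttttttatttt
The window of Mccc1 held both motifs, that of Ppm1k held both, and that of Bckdk held a CCAAT box alone. Of the 10 members, 9 had a window in the RefSeq table, Dbt had none there, and some had more than 1 start, giving 11 windows. A CCAAT box was in 6 of the 11 windows, against 37.4% of all 32851 windows in the table, and a GC box was in 5 of the 11, against 35.7% of all windows. ISRE letters (GAAANNGAAA, either strand) were in 0 of the 11 windows and in 3.44% of all windows. EICE letters (GGAANNGAAA, either strand), which differ from these only in the second letter, were in 0 of the 11 and in 2.72% of all windows. The letters AAGGTCA, bound by estrogen-related receptors, were in 0 of the 11 and in 4.72% of all windows. These counts describe letters in short windows and say nothing of whether a factor binds there or elsewhere.

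The deposited value of a gene in a mouse is its CPM, the reads of the gene as a share of the library on a common scale, after trimmed-mean (TMM) scaling of the libraries. Every non-zero value was a whole multiple of 1 step per mouse, so the whole counts behind it were recovered, in all 13417512 to 16384565 per mouse. These counts are the authors' estimates per gene by the program RSEM, in whole numbers, and are called reads here. At this depth 3 reads correspond to a value of 0.181 to 0.225. The members had between 341 and 5347 reads in each mouse, and all 10 reached a value of 1 in every mouse, where the filter on low values asked for this in 4 of the 8. Groups were compared by limma on log2(value + 1) over the 11865 genes that passed this filter, and log2 differences are MI4KO minus flox. Those from limma are on that scale, which understates the change of low genes, while those from edgeR, DESeq2 and ratios do not use this pseudocount. Over all genes tested, 399 or 3.36% had an unadjusted p under 0.05 by limma, and 26 or 0.219% also reached a fold of 1.5. Of the same genes, 0 or 0% had an adjusted p under 0.05 by limma. The limits on fold and unadjusted p are those of the study, which applied them with edgeR and reported a much larger count for SOL. With edgeR on the recovered reads, 65 genes were past both limits here, also far fewer than in the study. The reason for this gap was not tested. edgeR and DESeq2 on the recovered reads also gave 0 genes at an adjusted p under 0.05, with 363 and 248 genes under an unadjusted p of 0.05. The values of the MI4KO and flox mice did not overlap for 246 genes, or 2.07%. These limits and shares apply to each count of members given here.

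Irf4, the deleted gene (chromosome 13, 30749226 to 30766976 on the plus strand of GRCm38, 9 exons), was low in whole SOL. Its TMM-normalized CPM was 0.686, 1.46, 1.58 and 1.68 in flox mice 1 to 4, and 0.725, 0.840, 0.266 and 1.03 in MI4KO mice 1 to 4, with 4 to 23 reads per mouse. Flox mouse 1 fell within the MI4KO range, and the other 3 flox mice lay above it. The log2 difference of Irf4 was -0.45 (SE 0.20, unadjusted p = 0.040, adjusted p = 1.0, limma). In a whole muscle, fewer cells that carry a transcript and less of it per cell cannot be told apart.

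Both fibre types were strongly represented in every mouse, with a summed TMM-normalized CPM of 32196 to 42353 for 7 slow-fibre genes and of 46017 to 61683 for 8 fast-fibre genes. The fast-fibre sums of MI4KO mice 1 and 2, at 49420 and 46017, were under the lowest flox sum of 51961. That of MI4KO mouse 3, at 61683, exceeded the highest flox sum of 57397, and MI4KO mouse 4 fell between these flox limits. For slow fibres, only MI4KO mouse 4, at 32196, fell outside the flox limits of 34768 and 42353. Of 14 hepatocyte genes, 11 were under a value of 1 in at least 7 mice, but their sum was 178.7 in flox mouse 1 against 7.83 to 26.4 in the other 7 mice, and all 14 were highest in flox mouse 1. For 7 adipocyte genes the flox sums were 240.2 to 302.3 and the MI4KO sums 180.6 to 271.0. Of 6 neutrophil genes, 5 were in the table, and their sum was 5.65 in MI4KO mouse 3 and 0.975 to 2.05 elsewhere. None of these marker genes was at 0 in all 8 mice. The part of flox mouse 1 and MI4KO mouse 3 in the members' results is given as values without them, and the part of the marker genes was not tested.

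**Figure D1:**
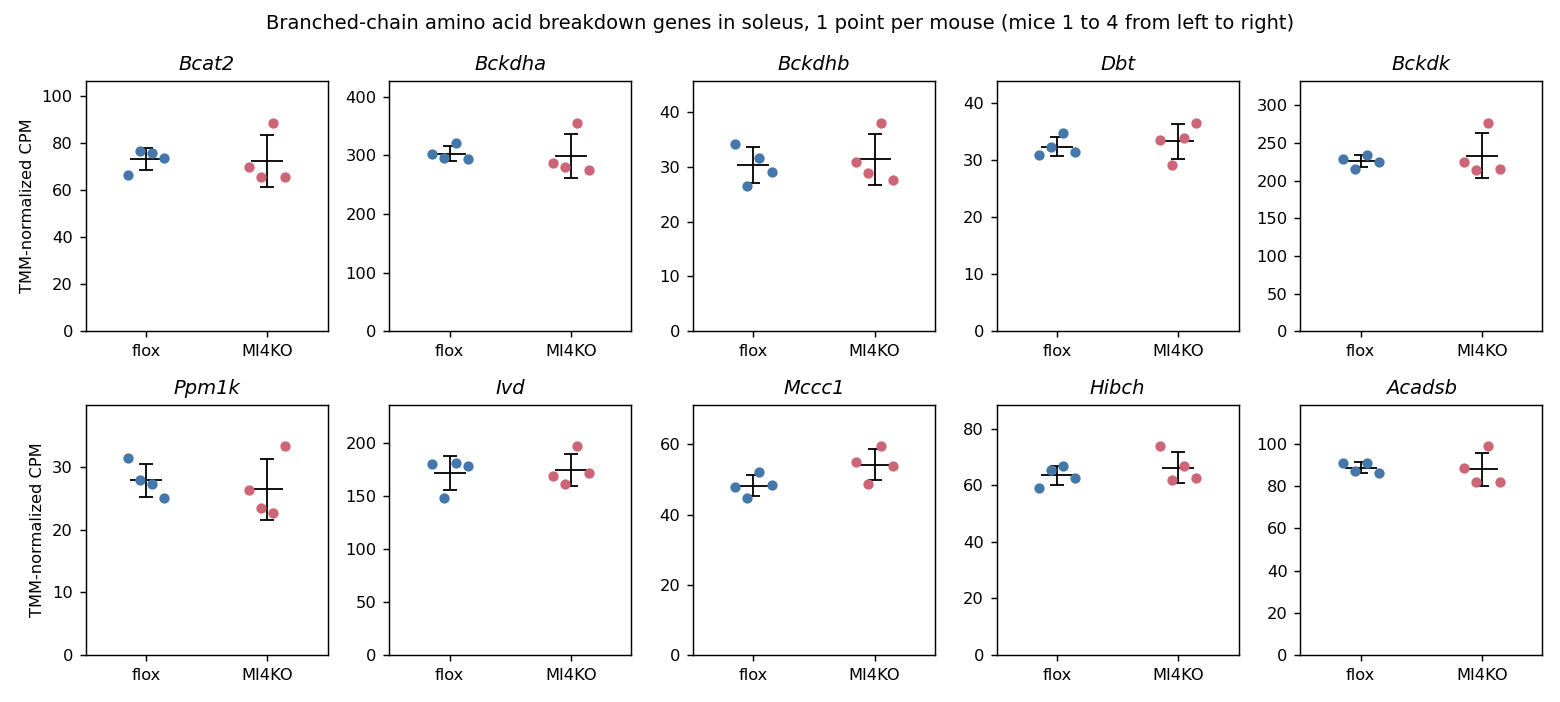
Each panel plots the TMM-normalized CPM (vertical axis, starting at 0) of 1 of the 10 genes in the 4 flox mice (blue) and the 4 MI4KO mice (red), with mice 1 to 4 of a group from left to right and horizontal bars for the mean ± SD. The groups overlap in all 10 panels, and MI4KO mouse 3 is the highest point of 7 panels.

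Bcat2 encodes the mitochondrial transaminase of the first step (chromosome 7, 45570153 to 45589711 on the plus strand, 11 exons). Its TMM-normalized CPM was 66.4, 76.7, 75.9 and 73.8 in flox mice 1 to 4, and 69.9, 65.7, 88.8 and 65.9 in MI4KO mice 1 to 4. The lowest and the highest value were both in MI4KO mice, and the flox mice lay between them. The flox mean was 73.2 ± 4.71 and the MI4KO mean 72.6 ± 11.0 (SD, n = 4 each), with a log2 difference of -0.02 (SE 0.10, adjusted p = 1.0, limma). Bcat1, the cytosolic form of the transaminase, had 0 to 6 reads per mouse and was not tested. Without both flox mouse 1 and MI4KO mouse 3, an alternative chosen after seeing the data, Bcat2 was at -0.17 (SE 0.07, unadjusted p = 0.043, adjusted p = 0.894, limma).

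The BCKDH complex is built from a decarboxylase of alpha and beta subunits, encoded by Bckdha and Bckdhb, a transacylase core encoded by Dbt, and a dehydrogenase subunit encoded by Dld that other complexes share. Bckdha (chromosome 7, 25629946 to 25658981 on the minus strand, 9 exons) had a TMM-normalized CPM of 302.2, 294.5, 321.0 and 293.1 in flox mice 1 to 4, and of 286.8, 279.2, 355.5 and 274.9 in MI4KO mice 1 to 4. As deposited, 3 of the MI4KO mice lay below every flox mouse and MI4KO mouse 3 lay above every flox mouse. By library size, MI4KO mice 1 and 2, at 294.7 and 304.2, lay inside the flox range of 287.4 to 305.1. MI4KO mouse 3 was above that range at 326.3 and MI4KO mouse 4 below it at 284.5. The log2 difference of Bckdha was -0.02 (SE 0.09, adjusted p = 1.0, limma) and -0.11 (SE 0.06, unadjusted p = 0.107, adjusted p = 0.970, limma) without MI4KO mouse 3.

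Bckdhb (chromosome 9, 83925145 to 84124240 on the plus strand, 11 exons) was at 34.2, 26.6, 31.6 and 29.1 TMM-normalized CPM in flox mice 1 to 4, and at 31.0, 29.0, 38.1 and 27.6 in MI4KO mice 1 to 4. The lowest value was in flox mouse 2 and the highest in MI4KO mouse 3, with wide overlap, and the log2 difference was 0.04 (SE 0.11, adjusted p = 1.0, limma). Dbt (chromosome 3, 116513070 to 116549981 on the plus strand, 11 exons) was at 31.0, 32.3, 34.7 and 31.5 in flox mice 1 to 4, and at 33.6, 29.2, 33.8 and 36.6 in MI4KO mice 1 to 4. Both ends of its range were in MI4KO mice, here mice 2 and 4 rather than mouse 3, and the log2 difference was 0.04 (SE 0.08, adjusted p = 1.0, limma). Dld ran from 307.9 to 331.3 in flox mice, against 301.5 to 355.1 in MI4KO mice, with a log2 difference of 0.07 (SE 0.07, adjusted p = 1.0, limma).

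The subunits of the decarboxylase were also set against each other within each mouse, since a ratio within a library does not depend on its scaling. The ratio of the Bckdha to the Bckdhb value was 8.83, 11.1, 10.2 and 10.1 in flox mice 1 to 4, and 9.26, 9.64, 9.33 and 9.98 in MI4KO mice 1 to 4. All 4 MI4KO ratios lay inside the flox range. The group means of the log2 ratio differed by -0.07 (exact two-sided permutation test, p = 0.4, n = 4 per group, adjusted p = 0.9 over 3 ratios), where 0.0286 is the smallest p that 4 mice against 4 allow. The ratio of Bcat2 to Bckdha, the first step against the second, ran from 0.220 to 0.260 in flox mice and from 0.2352 to 0.2499 in MI4KO mice. Its group means differed by 0.003 on the log2 scale (exact two-sided permutation test, p = 0.971, n = 4 per group, adjusted p = 0.971).

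Bckdk, the kinase that inactivates the complex (chromosome 7, 127904082 to 127910221 on the plus strand, 12 exons), was at 229.4, 215.2, 233.6 and 225.3 TMM-normalized CPM in flox mice 1 to 4, and at 225.2, 213.6, 276.9 and 215.8 in MI4KO mice 1 to 4. As deposited, MI4KO mouse 3 was above all flox mice, and the other 3 MI4KO mice were within or just below their range. The log2 difference of Bckdk was 0.04 (SE 0.09, adjusted p = 1.0, limma), and without MI4KO mouse 3 it was -0.05 (SE 0.06, adjusted p = 0.978, limma).

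Ppm1k, the phosphatase that activates the complex (chromosome 6, 57506502 to 57535468 on the minus strand, 7 exons), was at 31.4, 27.9, 27.3 and 25.0 in flox mice 1 to 4, and at 26.4, 23.4, 22.7 and 33.3 in MI4KO mice 1 to 4. It was the one member with its lowest value in MI4KO mouse 3, and its highest was in MI4KO mouse 4. The log2 difference of Ppm1k was -0.09 (SE 0.12, adjusted p = 1.0, limma), the widest interval of the 10 members, from -0.34 to 0.17. It was -0.20 (unadjusted p = 0.070, limma) without MI4KO mouse 4 and -0.02 (unadjusted p = 0.863, limma) without MI4KO mouse 3.

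The ratio of the kinase to the phosphatase in TMM-normalized CPM was 7.30, 7.72, 8.55 and 9.01 in flox mice 1 to 4, and 8.53, 9.13, 12.2 and 6.48 in MI4KO mice 1 to 4. MI4KO mice held both the highest ratio, in mouse 3, and the lowest, in mouse 4. The mean log2 ratio of 3.02 ± 0.14 in flox mice and of 3.15 ± 0.38 in MI4KO mice (SD, n = 4 each) gave a difference of 0.13 (exact two-sided permutation test, p = 0.6, adjusted p = 0.9 over 3 ratios). Without MI4KO mouse 3 the difference was -0.03 (exact two-sided permutation test, p = 0.857), and without MI4KO mouse 4 it was 0.28 (p = 0.171).

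Ivd, which oxidizes the leucine product isovaleryl-CoA (chromosome 2, 118861954 to 118882909 on the plus strand, 12 exons), was at 180.4, 148.1, 181.4 and 178.4 TMM-normalized CPM in flox mice 1 to 4, and at 168.8, 161.6, 197.0 and 171.5 in MI4KO mice 1 to 4. Flox mouse 2 lay well below the other 3 flox mice, which spanned only 178.4 to 181.4. The log2 difference of Ivd was 0.02 (SE 0.09, adjusted p = 1.0, limma).

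Mccc1 encodes the alpha subunit of methylcrotonyl-CoA carboxylase, the biotin enzyme of the next leucine steps (chromosome 3, 35959312 to 36000678 on the minus strand, 19 exons). It was at 47.8, 44.7, 52.1 and 48.5 TMM-normalized CPM in flox mice 1 to 4, and at 54.9, 48.8, 59.4 and 53.9 in MI4KO mice 1 to 4. Of the MI4KO mice, 3 were above every flox mouse, and MI4KO mouse 2 lay between flox mice 4 and 3. Means were 48.3 ± 3.07 (SD, n = 4) and 54.3 ± 4.36 (SD, n = 4), a log2 difference of 0.16 (SE 0.08, unadjusted p = 0.062, adjusted p = 1.0, limma). With this unadjusted p, 0 of the 10 members were under 0.05, against 3.36% of all genes tested.

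When the recovered reads were scaled by library size alone, Mccc1 was at 47.5, 46.3, 48.6 and 47.5 CPM in flox mice 1 to 4, and at 56.4, 53.2, 54.6 and 55.8 in MI4KO mice 1 to 4. On this scale the 4 MI4KO mice were all above the 4 flox mice, and Mccc1 was the only one of the 10 members whose groups did not overlap, which 2.55% of all genes tested did. The log2 difference was 0.21 (SE 0.06, unadjusted p = 0.0031, adjusted p = 0.954, limma). edgeR and DESeq2 on the recovered reads gave 0.18 and 0.19 (unadjusted p = 0.012 and 0.016, adjusted p = 1.0 for both). Across all alternatives the lowest adjusted p of any member ran from 0.894 to 1.0, so Mccc1 did not pass a test over all genes under any of them.

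Mccc2, the beta subunit that joins Mccc1 in the carboxylase, was at 41.6, 39.0, 43.1 and 39.9 TMM-normalized CPM in flox mice 1 to 4, and at 38.0, 37.1, 45.1 and 40.0 in MI4KO mice 1 to 4. Its groups overlapped under both scalings, and its log2 difference was -0.03 (SE 0.08, adjusted p = 1.0, limma). The ratio of Mccc1 to Mccc2, which does not depend on the scaling, was picked out after the values were seen and is given without a test. It was 1.15, 1.15, 1.21 and 1.22 in flox mice 1 to 4, and 1.44, 1.32, 1.32 and 1.35 in MI4KO mice 1 to 4. Every MI4KO ratio was above every flox ratio, and the mean log2 ratio was 0.20 higher in MI4KO mice. Taking each gene tested over Mccc2 in the same way, 228 of 11864 genes, or 1.92%, had groups that did not overlap. Taking Mccc1 over each other gene, the MI4KO mice were all above the flox mice for 1987 of 11864 genes, or 16.7%.

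**Figure D2:**
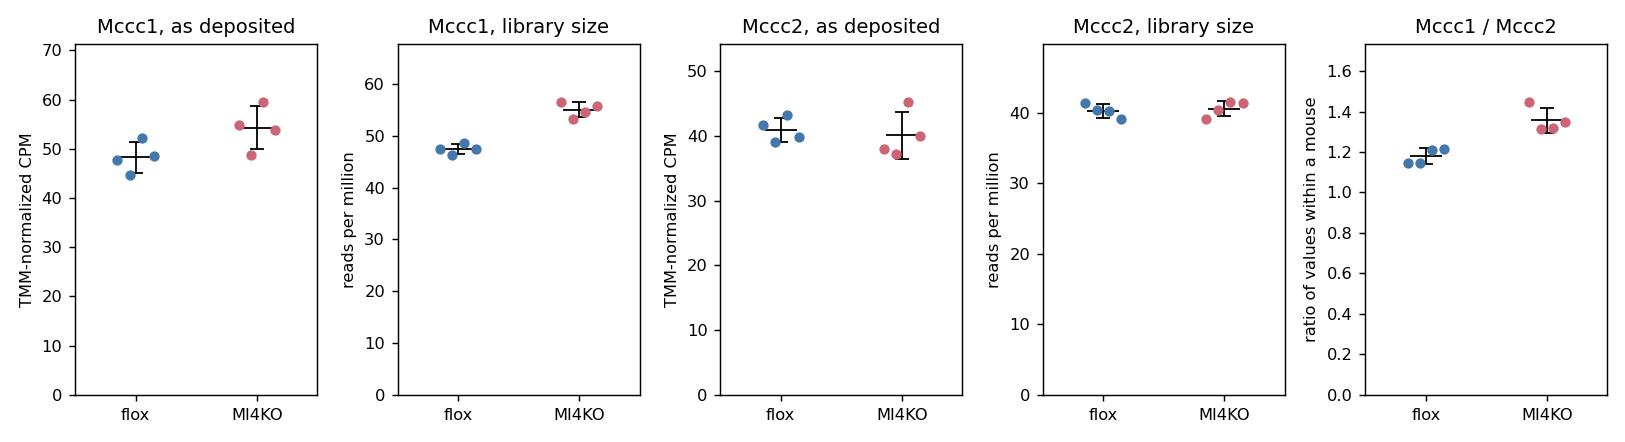
The panels plot, for each of the 4 flox mice (blue) and 4 MI4KO mice (red), Mccc1 and Mccc2 as TMM-normalized CPM, both again as CPM scaled by library size alone, and their ratio within a mouse, with the mean ± SD as bars and every vertical axis starting at 0. Mccc1 overlaps between the groups as deposited and not by library size, Mccc2 overlaps on both scales, and the ratio runs from 1.15 to 1.22 in flox mice and from 1.32 to 1.44 in the MI4KO group.

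Hibch, which releases coenzyme A in the valine route (chromosome 1, 52844929 to 52920986 on the plus strand, 14 exons), was at 59.0, 65.4, 66.9 and 62.6 TMM-normalized CPM in flox mice 1 to 4, and at 73.8, 61.8, 66.8 and 62.7 in MI4KO mice 1 to 4. MI4KO mouse 1 was the highest, and the other 3 MI4KO mice lay inside the flox range. The log2 difference of Hibch was 0.06 (SE 0.08, adjusted p = 1.0, limma). Acadsb, the dehydrogenase of short branched-chain acyl-CoAs (chromosome 7, 131410601 to 131448944 on the plus strand, 11 exons), was at 90.9, 87.1, 91.2 and 86.3 in flox mice 1 to 4, and at 88.6, 82.2, 98.9 and 82.2 in MI4KO mice 1 to 4. As deposited, MI4KO mouse 1 lay inside the narrow flox range, mouse 3 above it and mice 2 and 4 below it. The log2 difference of Acadsb was -0.02 (SE 0.07, adjusted p = 1.0, limma).

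**Figure D3:**
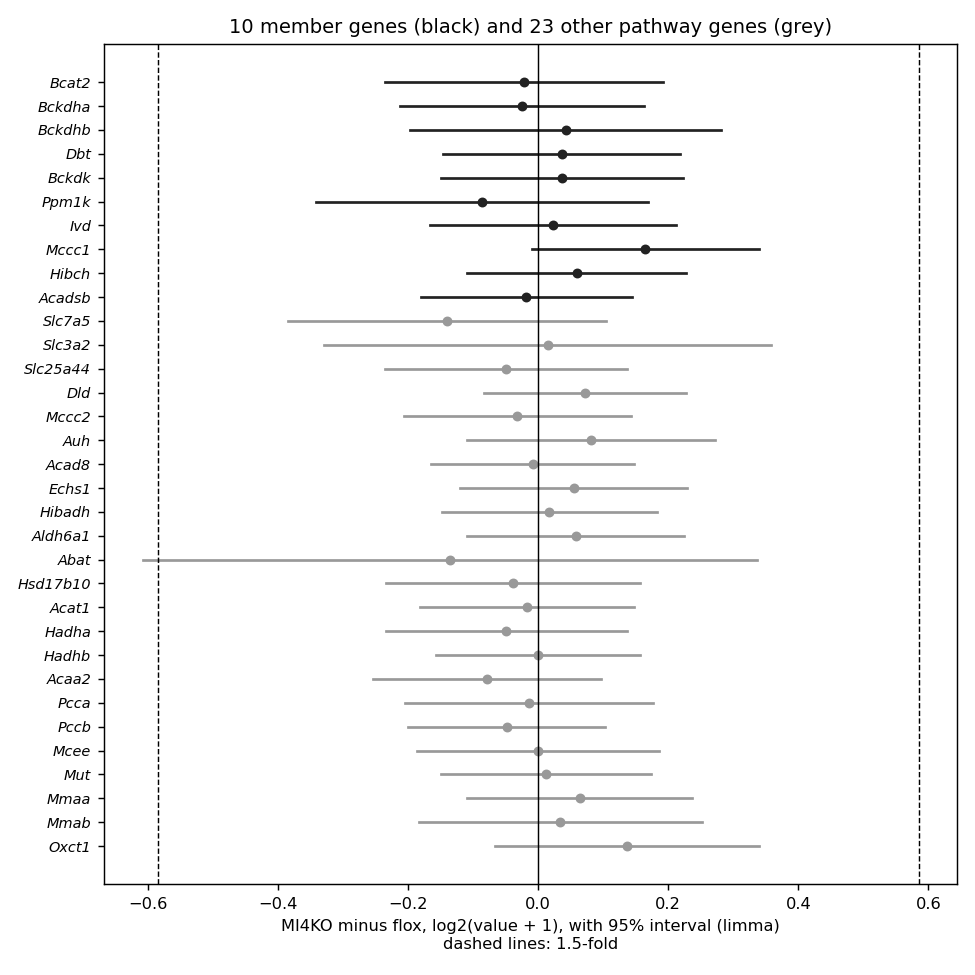
Points are the MI4KO minus flox difference of log2(value + 1) for the 10 members (black) and 23 other genes of the pathway (grey), with the 95% interval of limma as lines, a solid line at no difference and dashed lines at 1.5-fold. The members run from -0.09 to 0.16 and every member's interval includes 0, and among the other genes only the interval of Abat reaches a dashed line.

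The other genes of the pathway, taken from a list of 24 that covers transport, the shared steps and the routes to succinyl-CoA and acetyl-CoA, were described in the same way. Of the 23 tested, 11 were higher and 12 lower in MI4KO mice, with log2 differences from -0.14 to 0.14, and 0 had an unadjusted p under 0.05, past both limits, or groups that did not overlap. The lowest was Slc7a5, which carries large neutral amino acids into the cell, at -0.14 (SE 0.11, adjusted p = 1.0, limma), and its partner chain Slc3a2 was at 0.01 (SE 0.16, adjusted p = 1.0, limma). The highest was Oxct1, which activates ketone bodies for use, at 0.14 (SE 0.09, adjusted p = 1.0, limma).

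Along the routes, 1 of 2 other leucine genes, 3 of 5 other valine genes, 1 of 5 other isoleucine genes and 3 of 6 genes from propionate to succinyl-CoA were higher in MI4KO mice. Their log2 differences ranged from -0.03 to 0.08 for the leucine genes, from -0.14 to 0.06 for the valine genes, from -0.08 to 1.2e-05 for the isoleucine genes, and from -0.05 to 0.06 for the propionate genes. Auh, the hydratase that follows the carboxylase in the leucine route, was at 0.08 (SE 0.09). Pcca and Pccb, the subunits of propionyl-CoA carboxylase, another biotin enzyme, were at -0.01 (SE 0.09) and -0.05 (SE 0.07).

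Levels of the 10 members were compared per length of the annotated principal transcript, as TMM-normalized CPM per kb. In flox mice Bckdha was highest at 159.4 ± 6.75 (SD, n = 4), followed by Bckdk at 66.3 ± 2.32, Ivd at 47.0 ± 4.38, Bcat2 at 41.3 ± 2.66 and Hibch at 34.7 ± 1.90. The lower levels per kb were Bckdhb at 20.6 ± 2.24, Mccc1 at 19.7 ± 1.25, Acadsb at 14.6 ± 0.419, Dbt at 9.81 ± 0.505 and Ppm1k at 5.02 ± 0.478. From Bckdha to Ppm1k the level per kb differed 31.8-fold. Neighbours in this order whose flox ranges overlapped were Ivd with Bcat2 and Bckdhb with Mccc1, and the other 7 neighbouring pairs had separate ranges. In MI4KO mice the ranges of Bcat2 and Hibch overlapped as well. With the length of all annotated exons in place of the length of the principal transcript, Bcat2 and Hibch changed places, as did Bckdhb and Mccc1.

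Within the complex, transcript levels per kb were far from equal. The level of Bckdha per kb was 7.78 ± 0.719 times that of Bckdhb in flox and 7.40 ± 0.254 times in MI4KO mice (SD, n = 4 each). Over Dbt, Bckdha per kb was 16.3 ± 0.484 times as high in flox and 15.7 ± 2.24 times in MI4KO mice. The kinase Bckdk per kb was 13.3 ± 1.27 times the phosphatase Ppm1k in flox and 14.8 ± 3.88 times in MI4KO mice. These are ratios of RNA, and the lengths of the isoforms in use are not known from the table.

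**Figure D4:**
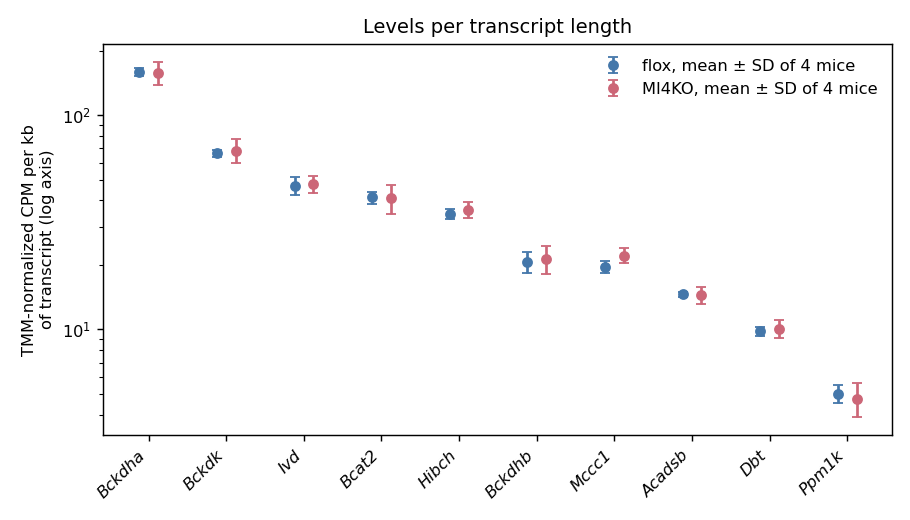
Points are the mean TMM-normalized CPM per kb of transcript (log axis) of the 10 genes in flox (blue) and MI4KO (red) SOL, with the SD of 4 mice as bars, in falling order of the flox mean. Bckdha leads at 159.4 and Ppm1k is last at 5.02 in flox mice, and the order is the same in both groups apart from Bckdhb and Mccc1.

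As deposited, the median spread between mice was wider in the MI4KO group. The coefficient of variation of the members' TMM-normalized CPM had a median of 5.91% in flox mice, from 2.86% for Acadsb to 10.8% for Bckdhb, and of 10.9% in MI4KO mice, from 8.03% for Mccc1 to 18.3% for Ppm1k. Counting error alone gives 1.49% to 5.06% at these depths. Over all genes tested the medians were 9.32% in flox and 12.1% in MI4KO mice. Without MI4KO mouse 3, the other 3 MI4KO mice gave a median of 5.16% for the members and 9.80% over all genes. Ivd went the other way, with 9.32% in flox and 8.85% in MI4KO mice. By library size, where this coefficient was not taken, Ivd ran from 153.4 to 179.3 in flox and from 173.4 to 180.9 in MI4KO mice. Ppm1k there ran from 24.5 to 31.2 in flox and from 20.8 to 34.5 in MI4KO mice.

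MI4KO mouse 3 held the highest TMM-normalized CPM of Bcat2, Bckdha, Bckdhb, Bckdk, Ivd, Mccc1 and Acadsb, and the lowest of Ppm1k. The median deviation of the 10 members from their gene means was 0.20 on the log2 scale in this mouse, against -0.10 to 0.05 in the other 7 mice, while the median over all genes in this mouse was 0.07. It held the highest value of 30.9% of all genes tested, a share against which the 7 of 10 members are to be read. With scaling by library size, MI4KO mouse 3 was highest for 5 of the 10 members, which 13.2% of all genes tested were. The members' median deviation there was 0.08, against -0.07 to 0.03 in the others, while the median over all genes in this mouse was -0.05.

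Other lists moved in the same mouse. All 11 genes of mitochondrial content, such as citrate synthase and subunits of the respiratory chain, were highest in MI4KO mouse 3 as deposited, with a median deviation of 0.20, and 7 of 11 were by library size, with 0.08. All 12 glucocorticoid-response genes were highest there under both scalings, with a summed TMM-normalized CPM of 3780 against 2039 to 2334. As deposited, 5 of the 8 fast-fibre genes and 0 of the 7 slow-fibre genes were highest in MI4KO mouse 3, which held the highest value of 30.9% of all genes tested. The fibre lists were not taken by library size. Klf15, a glucocorticoid-induced transcription factor known to drive Bcat2 and other genes of this pathway in muscle, was at 62.3, 43.1, 51.5 and 50.8 in flox mice 1 to 4, and at 44.2, 49.1, 94.7 and 49.6 in MI4KO mice 1 to 4. Only MI4KO mouse 3 stood out, and the log2 difference of Klf15 was 0.13 (SE 0.20, adjusted p = 1.0, limma). Ppara, a fatty acid-sensing nuclear receptor, was at 209.8 in that mouse and 73.7 to 100.7 in the others. Ppargc1a, a coactivator of mitochondrial genes, was at 101.2 in MI4KO mouse 3 and at 76.7 in flox mouse 1. It was at 28.5 to 48.8 in the remaining mice. Esrra, the estrogen-related receptor that works with it, was at 260.0 against 207.5 to 231.5. By library size, Esrra in MI4KO mouse 3 was barely above the others, at 238.7 against 213.4 to 237.9. On that scale Klf15 was at 87.0 against 44.6 to 62.0 and Ppara at 192.6 against 76.3 to 100.1. Ppargc1a was at 93.0 there, against 29.5 to 76.3. The part of these genes in the members' levels was not tested.

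**Figure D5:**
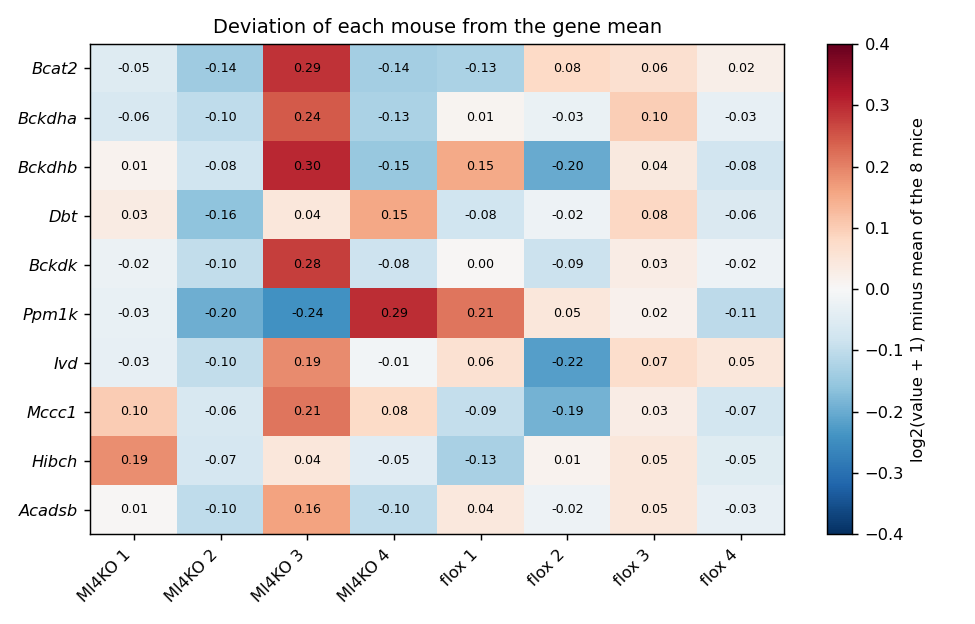
Each cell gives the difference of a mouse's log2(value + 1) from the mean of the 8 mice for 1 gene, in red above and blue below the mean on the scale at the right. MI4KO mouse 3 is above the mean for 9 of the 10 genes and below it for Ppm1k, at -0.24.

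Without MI4KO mouse 3, 3 members were higher and 7 lower in MI4KO mice, with a median log2 difference of -0.04, equal at this rounding to the median of -0.04 over all genes in that fit. Without flox mouse 1, 6 were higher and 4 lower, with a median of 0.02 against -0.02 over all genes. Without both, 5 were higher and 5 lower, with a median of -0.003 against -0.04 over all genes. The range there was from -0.17 for Bcat2 to 0.12 for Mccc1. Mccc1 was the member that stayed highest, at 0.12 (SE 0.08, unadjusted p = 0.146, adjusted p = 0.975, limma) without MI4KO mouse 3.

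The numbers in the mouse labels fall into a lower range, with flox mouse 1 and MI4KO mice 1 and 2, and a higher range, with flox mice 2 to 4 and MI4KO mice 3 and 4. What the ranges stand for is not stated, and the lower holds 1 flox mouse, so values within a range carry no test. Of the 10 members, 3 had the same direction within both ranges, namely Bcat2, Dbt and Mccc1, and 7 had opposite directions. Mccc1 was higher in MI4KO mice by 0.11 on the log2 scale in the lower range and by 0.22 in the higher range, and its groups did not overlap within either. In the lower range, with 1 flox mouse against 2 MI4KO mice, 8 of the 10 members and 66.2% of all genes tested did not overlap, and in the higher range Mccc1 alone of the 10 and 19.4% of all genes did not. Bckdhb went from -0.19 to 0.16 and Ppm1k from -0.33 to 0.04 between the ranges.

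Some members share their locus with a gene on the other strand, and whether the authors counted reads by strand is not given in the sources used here. Mccc1os, antisense to Mccc1, had 10 to 24 reads per mouse against 644 to 894 for Mccc1. B3gnt8, antisense to Bckdha, had 6 to 23 reads. Fgfr2, whose annotated model reaches over Acadsb, had 0 to 12 reads, and 0610005C13Rik, antisense to Bcat2, had 0 to 2 reads. Other overlapping genes have no row in the deposited table. Among these, the longest overlaps on the other strand are of Gm15952 with Mccc1, Gm45193 with Ppm1k and Gm46124 with Bckdhb. They cover 31529, 28967 and 15679 bases of genomic span, introns included. On the same strand, Gm43080 overlaps Mccc1 over 2643 bases, Gm43651 Dbt over 439 and Gm44982 Acadsb over 471. Reads of these genes were not analysed here, so their share in the members' values is not known.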

How the data were processed

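RNA of 8 soleus muscles was sequenced by the authors from stranded poly(A) libraries as single reads of 50 bases. Per the submitters' processing notes and the study's methods, reads were demultiplexed with bcl2fastq 2.17, mapped to UCSC transcripts with Bowtie2 2.1.0 and estimated per gene with RSEM 1.2.15, with mm10 as the build. As signal, the authors deposited TMM-normalized CPM, with sums of 917785 to 1089208 per mouse. The authors' table also holds their fold change, p-value and FDR, which were not used.

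Each value was divided by its mouse's step, and 100% of non-zero values came out as whole reads within 0.01. Of 24054 genes, 6086 had no read. Mice were grouped by the title of each sample, and every pair of mice differed by more than sampling noise (lowest chi-square per degree of freedom 6.06), so each was counted once. Groups were compared with limma 3.58.1 (R 4.3.3, trend) on log2(value + 1), with Benjamini-Hochberg adjustment over the 11865 genes tested, and 3 ratios by exact permutation over 70 assignments (scipy 1.17.1). The fit was tested on simulated data. edgeR 4.0.16 and DESeq2 1.42.0 on the recovered reads, other pseudocounts, filters and scalings, a covariate for the range of mouse numbers and leaving out mice were alternatives. Gene positions and lengths are from GENCODE on GRCm38 and promoters from RefSeq. Intervals and floors cover counting error only where they rest on reads.

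The members, the lists of other pathway genes, regulators and markers, and the tests were chosen with earlier results of these data known. Named are the 10 members, Irf4, Klf15, pathway genes with an unadjusted p under 0.05 or groups that do not overlap, and otherwise up to 2 pathway genes per step. The planned pathway list held 1 further gene, which is not reported here. The other regulators and the antisense genes were named after their values were seen, as was the ratio of Mccc1 to Mccc2.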

Additional observations from a re-analysis of the deposited data

Results flagged for a closer look

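The gap of a mouse to its nearest neighbour was divided by the whole range of its group of 4 on the log2 scale. This was done in 26 groups, for the 10 members as deposited and the 3 ratios. In 2 groups it was above Dixon's 95% critical value for 4 values. In independent groups of normal values chance alone flags about 1 in 20. These 26 groups share mice and values, so the 2 cannot be weighed against that rate. Bckdha in MI4KO mouse 3 was at 355.5 TMM-normalized CPM, with a gap of 0.835, where the other 3 MI4KO mice were at 274.9 to 286.8. Ivd in flox mouse 2 was at 148.1, with a gap of 0.916, where the other 3 flox mice were at 178.4 to 181.4. By library size both mice stood less far apart, and the gap was not taken there. Bckdha was then at 326.3 in MI4KO mouse 3 and at 284.5 to 304.2 in the other 3 MI4KO mice. Ivd was at 153.4 in flox mouse 2 and at 169.0 to 179.3 in the other 3 flox mice.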

How the results depend on the processing

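Under all 18 alternatives, Mccc1 and Hibch kept a higher mean in MI4KO mice, at 0.12 to 0.21 and at 0.007 to 0.10 on the log2 scale, and the ratio of Bckdha to Bckdhb kept its direction under its own alternatives. No member was past both limits or under an adjusted p of 0.05 in any of them. No paired analysis was possible because the labels give the groups no shared numbers. The count of genes past both limits, 26, became 60 with a pseudocount of 0.25, 13 with robust estimation, 65 with edgeR and 51 with DESeq2, and 18 to 57 with a mouse left out, the most without MI4KO mouse 4. The count at an adjusted p under 0.05 was 0 to 1 with a mouse left out, the 1 without MI4KO mouse 2. Members under an unadjusted p of 0.05, 0 as reported, were 1 with no filter, median-of-ratios scaling, library-size scaling, the covariate, edgeR or DESeq2, each time Mccc1, 1 with both mice that stand apart left out, there Bcat2, and 0 to 1 with a mouse left out, the 1 without flox mouse 3 or MI4KO mouse 2. Small differences changed sign. Acadsb was at 0.0024 by median-of-ratios, 0.026 by library size and 0.0011 by DESeq2. Bcat2 was at 0.022 by library size, 0.023 with the covariate and 0.00092 by DESeq2, and Bckdha at 0.020 by library size. With both mice left out, Bckdk was at -0.042, Ppm1k at 0.037 and Ivd at -0.012. With 1 mouse left out, values ran from -0.121 to 0.022 for Bcat2, -0.110 to 0.013 for Bckdha, -0.052 to 0.10 for Bckdhb, -0.0089 to 0.096 for Dbt, -0.049 to 0.075 for Bckdk, -0.199 to -0.020 for Ppm1k, -0.047 to 0.059 for Ivd and -0.075 to 0.013 for Acadsb. The log2 difference in the ratio of Bckdk to Ppm1k was -0.079 without both and -0.028 to 0.277 with 1 mouse left out. That in the ratio of Bcat2 to Bckdha was -0.014 by medians, -0.058 without both and -0.043 to 0.039 with 1 mouse left out. The cause of these changes was not tested. Scaling moved the median of all genes by less than 0.1.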

Other observations

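The ratio of each member to each of the 32 other tested genes of the pathway was taken within each mouse, so that scaling plays no part, after the ratio of Mccc1 to Mccc2 had been seen. For Mccc1, the ratios to 12 of the 32 genes did not overlap between the groups, and all 12 were higher in MI4KO mice. For each of the other 9 members, 0 to 1 of 32 ratios did not overlap. These 32 ratios share the values of Mccc1 and are not independent. How many of all genes tested reach 12 such ratios was not counted, so the contrast of Mccc1 with the 9 other members cannot be weighed. Over all 11864 other genes tested, the ratio of Mccc1 was without overlap and higher in MI4KO mice for 1987 genes, or 16.7%, and without overlap and lower for 5 genes.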
